A study of Mus musculus with 12 samples.

Results

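Cytochrome c oxidase, complex IV of the mitochondrial respiratory chain, was followed here through 8 nuclear genes, of 20660 named on the array, that encode alternative forms of 4 of its subunits. The genes were taken by name and form 4 pairs of a form restricted to certain tissues and a partner found in most cells: Cox4i2 and Cox4i1, Cox6a2 and Cox6a1, Cox7a1 and Cox7a2, and Cox8b and Cox8a. They had 9 of its 55681 probes, with 2 for Cox8a and 1 for every other gene, and all 9 passed the filter on dim signal that left 32107 probes for testing. RNA came from subcutaneous white adipose tissue (scWAT) and brown adipose tissue (BAT) of wild-type (WT) mice and of mice lacking LR11 in the whole body (Lr11-/-, the receptor SorLA, gene symbol Sorl1). All groups were male C57Bl6/J mice of 12 weeks on a high-fat diet (HFD) with 60% of calories from fat, and WT animals were littermates. The labels give the diet both as 4 weeks and as running from weaning, so its length was not settled. Each of the 4 groups formed by depot and genotype had 3 one-colour Agilent arrays, and the replicate numbers used below only name the arrays. Nothing in the labels says which scWAT and BAT samples came from the same mouse, and p-values measure the spread between these samples.

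Cytochrome c oxidase takes electrons from cytochrome c, passes them to oxygen and pumps protons across the inner mitochondrial membrane. Its catalytic core is encoded by mitochondrial DNA, and a shell of small nuclear subunits surrounds it and tunes its activity and assembly. Several of these subunits exist in a liver type that most cells use and a heart type used by heart and skeletal muscle. Brown adipocytes, which oxidise fat to make heat through UCP1, also use the heart types of subunits VIIa and VIII, Cox7a1 and Cox8b, and both serve as markers of brown or beige adipocytes. Cox6a2 is the heart and skeletal muscle form of subunit VIa. Cox4i2 is a form of subunit IV known from lung and from oxygen-sensing cells of vessel walls.

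The start regions of the Cox7a1 and Cox8b pairs are printed because these pairs hold the brown fat forms and both members of each had a sequence, which Cox6a2, Cox4i2 and Cox4i1 did not. The sequences are from RefSeq (GRCm38.p6) and run from 250 bases before to 50 after the annotated start of each gene, and capitals mark matches to the motifs listed after them. Cox7a1 lies at chr7:30183921-30184220 (plus strand), Cox7a2 at chr9:79759804-79760103 (minus), Cox8b at chr7:140900397-140900696 (minus) and Cox8a at chr19:7217567-7217866 (minus).
Cox7a1: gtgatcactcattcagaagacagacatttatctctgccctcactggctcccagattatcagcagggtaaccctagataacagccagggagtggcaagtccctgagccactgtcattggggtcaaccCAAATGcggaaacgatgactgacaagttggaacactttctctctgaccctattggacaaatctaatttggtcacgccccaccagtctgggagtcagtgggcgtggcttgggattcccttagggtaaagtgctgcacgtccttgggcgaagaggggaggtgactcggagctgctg
Cox7a2: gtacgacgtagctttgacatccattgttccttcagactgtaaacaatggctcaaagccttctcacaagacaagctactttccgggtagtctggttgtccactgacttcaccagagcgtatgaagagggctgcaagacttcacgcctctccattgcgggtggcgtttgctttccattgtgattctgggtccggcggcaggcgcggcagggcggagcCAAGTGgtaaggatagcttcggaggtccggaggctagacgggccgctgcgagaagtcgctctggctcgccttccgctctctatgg
Cox8b: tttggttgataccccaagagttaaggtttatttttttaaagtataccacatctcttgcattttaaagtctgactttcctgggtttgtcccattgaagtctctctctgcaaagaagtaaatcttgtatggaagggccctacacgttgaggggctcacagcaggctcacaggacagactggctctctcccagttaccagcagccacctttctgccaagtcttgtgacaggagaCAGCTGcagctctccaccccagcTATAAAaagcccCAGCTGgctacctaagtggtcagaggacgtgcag
Cox8a: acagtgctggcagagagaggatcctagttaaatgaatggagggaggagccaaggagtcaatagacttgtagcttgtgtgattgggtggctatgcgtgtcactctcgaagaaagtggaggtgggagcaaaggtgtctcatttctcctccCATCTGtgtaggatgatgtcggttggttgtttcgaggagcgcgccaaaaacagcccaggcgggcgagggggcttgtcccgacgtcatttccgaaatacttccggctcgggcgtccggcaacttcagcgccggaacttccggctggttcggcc

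Of the 8 genes 5 had such a sequence, the fifth being Cox6a1 at chr5:115348909-115349208 (minus). The windows held 2 CpG dinucleotides in Cox8b and 7 in Cox7a1, against 19 in Cox8a, 20 in Cox7a2 and 32 in Cox6a1. The median over all 32851 windows was 7, so Cox8b was below it and Cox7a1 at it. The GC content was 48.3% for Cox8b and 53.0% for Cox7a1, and 56.0% to 63.0% for the ubiquitous forms, with a median of 52.7%. The 5 motifs were searched on both strands. The E-box CANNTG, which reads alike on both strands, was in 4 of the 5 windows (2 matches in Cox8b, 1 each in Cox7a1, Cox7a2 and Cox8a) and in 72.3% of all windows. TATAAA was found in Cox8b, 5 bases into the annotated transcript, and in 13.6% of all windows. The NRF1 core GCATGCG was in Cox6a1, where both strands match over the same bases, and in 3.58% of all windows. The estrogen-related receptor core AAGGTCA (4.72% of all windows) and the MEF2 core TATTTATA (1.7%) were in none of the 5.

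Levels are log2 signal relative to the 75th percentile of the array, so a value of 0 is the brightness that the brightest 25% of spots exceed. They are compared between arrays for 1 probe and never between probes. The knocked-out gene followed the labels: Sorl1 was at 0.91, 0.96 and 1.15 in WT scWAT and at -3.57, -3.56 and -2.87 in Lr11-/- scWAT, and its BAT groups did not overlap either. Skeletal muscle genes stood out on 5 arrays, WT scWAT replicate 3, Lr11-/- scWAT replicate 1, WT BAT replicates 1 and 3 and Lr11-/- BAT replicate 1. The mean of 14 such genes was 5.26 to 8.30 on these arrays, with all 14 well above background, and -3.48 to -2.73 on the other 7. Muscle uses the heart forms of the enzyme, and the counts of called genes and the main differences are therefore also given without these arrays. WT scWAT replicate 2 had the lowest mean of 8 general adipocyte genes (3.80, against 5.97 to 7.54 on all other arrays) and the highest mean of 5 macrophage genes (4.68, against 0.26 to 2.88). Besides muscle genes, Lr11-/- scWAT replicate 1 had the highest mean of 8 epithelial genes (-0.58, against -5.11 to -3.60 on all other arrays). Fits without this array leave out both. In whole tissue, fewer cells of a type and less RNA per cell cannot be told apart.

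**Figure D1:**
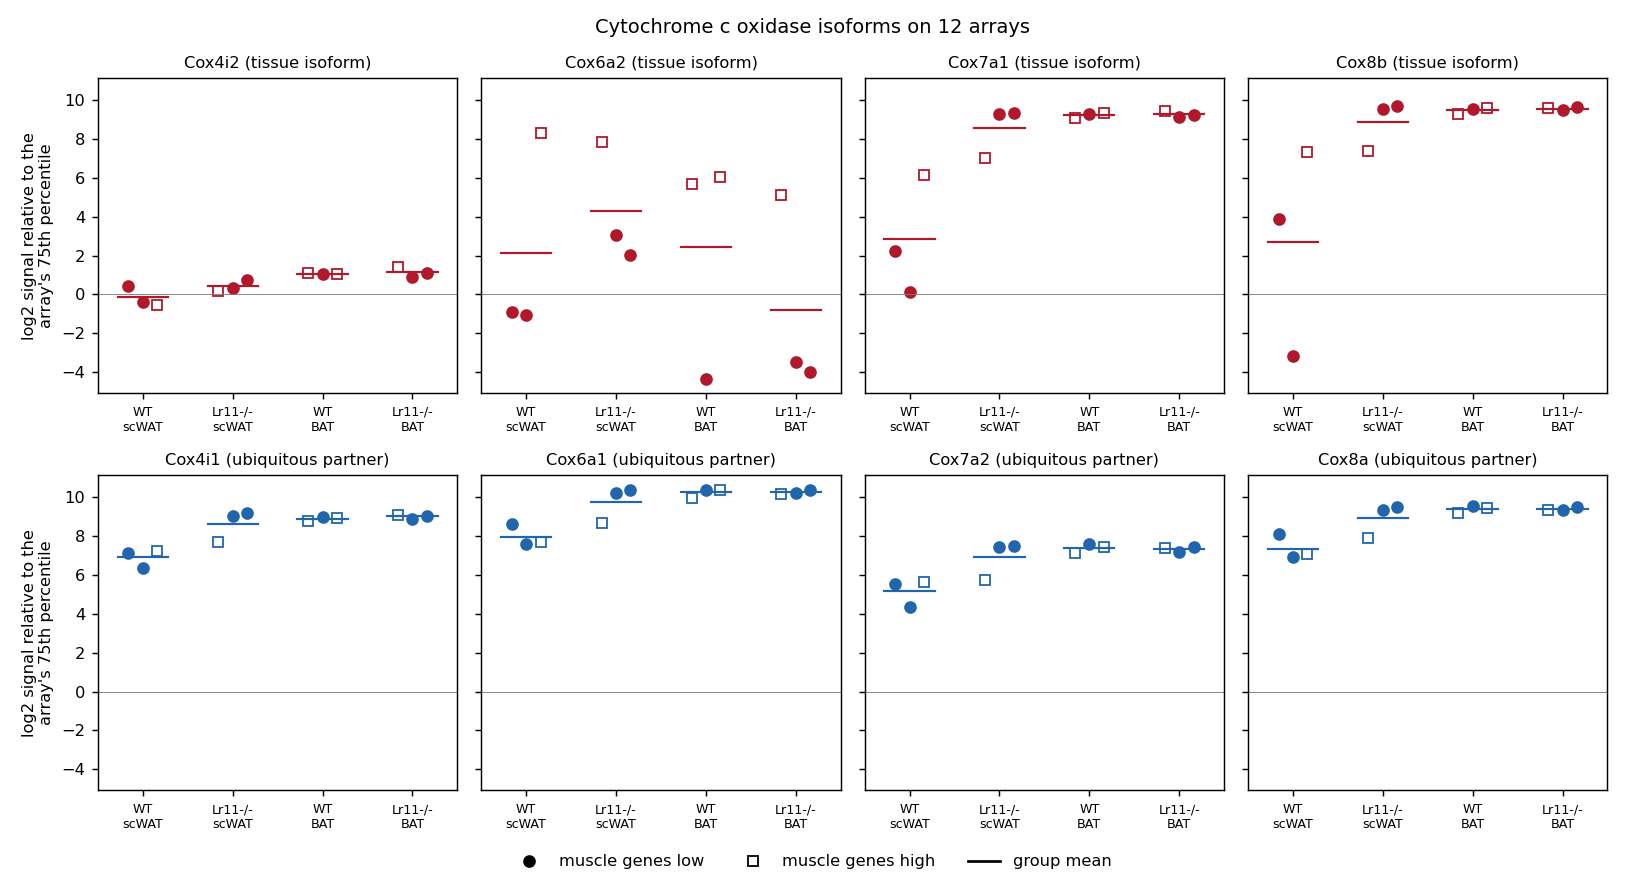
Log2 signal of the 8 genes relative to the 75th percentile of each array, on 12 arrays in 4 groups, 1 probe a panel; tissue forms are in the upper row and their ubiquitous partners in the lower, lines are group means, and open squares are the 5 arrays with skeletal muscle genes at 5.26 to 8.30. Cox7a1 and Cox8b run from 0.12 to 6.16 and from -3.15 to 7.33 in WT scWAT and lie above 9 on all BAT arrays, and Cox6a2 is at 5.11 or above on the open squares.

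Lr11-/- minus WT scWAT asks whether white fat of the knockout carries more of the brown fat forms. All 8 genes had a higher mean in Lr11-/- scWAT, and 3 passed the test, the tissue form Cox7a1 and the ubiquitous forms Cox4i1 and Cox6a1. Over all tested probes 3.4% were called higher. The arrays of the genotypes did not overlap, with Lr11-/- higher, for 5 of the 8 genes (11.7% of all probes). The median difference of the 8 was 1.74 on the log2 scale, beside 0.04 over all probes. The ubiquitous forms were 1.55 to 1.76 higher, which is a narrow range, while the tissue forms spanned 0.57 to 6.17.

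Cox7a1, the heart and brown fat form of the subunit VIIa that sits at the rim of the complex, was at 2.21, 0.12 and 6.16 in WT scWAT. It was at 7.02, 9.28 and 9.30 in Lr11-/- scWAT. Every knockout array lay above every WT array, and the highest WT and the lowest knockout array were the 2 with muscle genes. Cox7a1 was 5.70 higher (SE 1.19, 95% interval 3.06 to 8.34), a 52.0-fold difference (limma adjusted p = 0.038). It was 4.35 (adjusted p = 0.083) without WT scWAT replicate 2. Without the 2 arrays with muscle genes the difference was 8.12 (adjusted p = 0.00014), and with the mean of the muscle genes as a covariate it was 5.73 (adjusted p = 0.038).

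Its partner Cox7a2 had levels of 5.53, 4.33 and 5.64 in WT scWAT. Those of Lr11-/- scWAT were 5.74, 7.43 and 7.50. The genotypes were apart by a narrow gap, and Lr11-/- scWAT replicate 1 sat next to the WT arrays. The difference of 1.72 (SE 0.47) did not pass (limma adjusted p = 0.058), whereas without the 2 arrays with muscle genes it was 2.54 and passed (adjusted p = 0.0021).

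Cox8b, the heart and brown fat form of the small subunit VIII, was at 3.89, -3.15 and 7.33 in WT scWAT. In Lr11-/- scWAT it was at 7.37, 9.53 and 9.68. The WT arrays were far apart, with the lowest on replicate 2 and the highest on the array with muscle genes, which lay just under the lowest knockout array. The difference of 6.17 (SE 1.95, 95% interval 1.85 to 10.49) did not pass (limma adjusted p = 0.082). Without WT scWAT replicate 2 it was 3.25 (adjusted p = 0.11). Without the 2 scWAT arrays with muscle genes it was 9.23 (adjusted p = 0.0067), and without all 5 such arrays the same value had an adjusted p of 0.060.

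Cox8a, the ubiquitous form of subunit VIII, was at 8.11, 6.89 and 7.04 in WT scWAT. It was at 7.89, 9.31 and 9.48 in Lr11-/- scWAT. The groups overlapped through replicate 1 of each. Its brighter probe was 1.55 higher (SE 0.42, limma adjusted p = 0.058) and its second probe 1.80 higher (SE 0.49, adjusted p = 0.058), and neither passed. Without the 2 arrays with muscle genes the brighter probe was 1.90 higher and passed (adjusted p = 0.0064).

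Cox4i1, the common form of the largest nuclear subunit, was at 7.13, 6.34 and 7.24 in WT scWAT. Its levels in Lr11-/- scWAT were 7.70, 9.02 and 9.16. No arrays overlapped, and the difference of 1.72 (SE 0.37, limma adjusted p = 0.040) corresponds to 3.30-fold. The WT scWAT levels of Cox6a1, the common form of subunit VIa, were 8.62, 7.61 and 7.66, and the Lr11-/- levels were 8.63, 10.18 and 10.36. Replicate 1 of both genotypes differed by 0.02 on the log2 scale and the other knockout arrays lay well above, so that the groups were just apart. Cox6a1 was 1.76 higher (SE 0.43, adjusted p = 0.046). This call was lost with array series as a block (adjusted p = 0.052) and under every other scaling tried (adjusted p 0.052 to 0.071). Without the 2 arrays with muscle genes Cox4i1 was 2.35 higher (adjusted p = 0.00087) and Cox6a1 2.16 higher (adjusted p = 0.0026).

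Cox4i2 was dim, at 0.45, -0.36 and -0.55 in WT scWAT and at 0.19, 0.34 and 0.72 in Lr11-/- scWAT. These values overlapped, and the difference was 0.57 (SE 0.28, limma adjusted p = 0.21), or 0.49 without the 2 arrays with muscle genes (adjusted p = 0.26). Cox6a2 was at -0.88, -1.03 and 8.32 in WT scWAT and at 7.82, 3.06 and 2.04 in Lr11-/- scWAT. In both genotypes the array with muscle genes was far above the rest. The difference of 2.17 had a 95% interval from -5.63 to 9.98 and did not pass (adjusted p = 0.72).

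The 3 calls in scWAT lay close to the threshold. Leaving out each of the 12 arrays in turn gave 0 to 6 called genes, beside 0 to 13.4% of all probes called higher. None was called on 9 of the 12 occasions, where at most 0.333% of all probes were called higher. These were the fits without WT scWAT replicate 2, without Lr11-/- scWAT replicate 2 or 3, or without any 1 of the BAT arrays. A fit of the scWAT arrays alone called none of the 8 genes (limma, lowest adjusted p = 0.31) and 0 of all probes. Without the 2 scWAT arrays with muscle genes 6 were called, in a fit that called 16.4% of all probes higher, and without all 5 such arrays 5, with 7.38% of all probes. Within the first array series, which holds replicate 1 of each group, the knockout array exceeded the WT array by 4.80 for Cox7a1 and 3.48 for Cox8b but by -0.22 to 0.56 for the ubiquitous forms. Of these 2 arrays of the first series only the knockout one had muscle genes (mean 7.87, against -2.73), so genotype and muscle content differed together. Within the second series the differences were 6.15 for Cox7a1, 7.51 for Cox8b and 2.30 to 2.64 for the ubiquitous forms. There the array with muscle genes was a WT one, replicate 3. The part of muscle RNA in these differences was not tested.

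**Figure D2:**
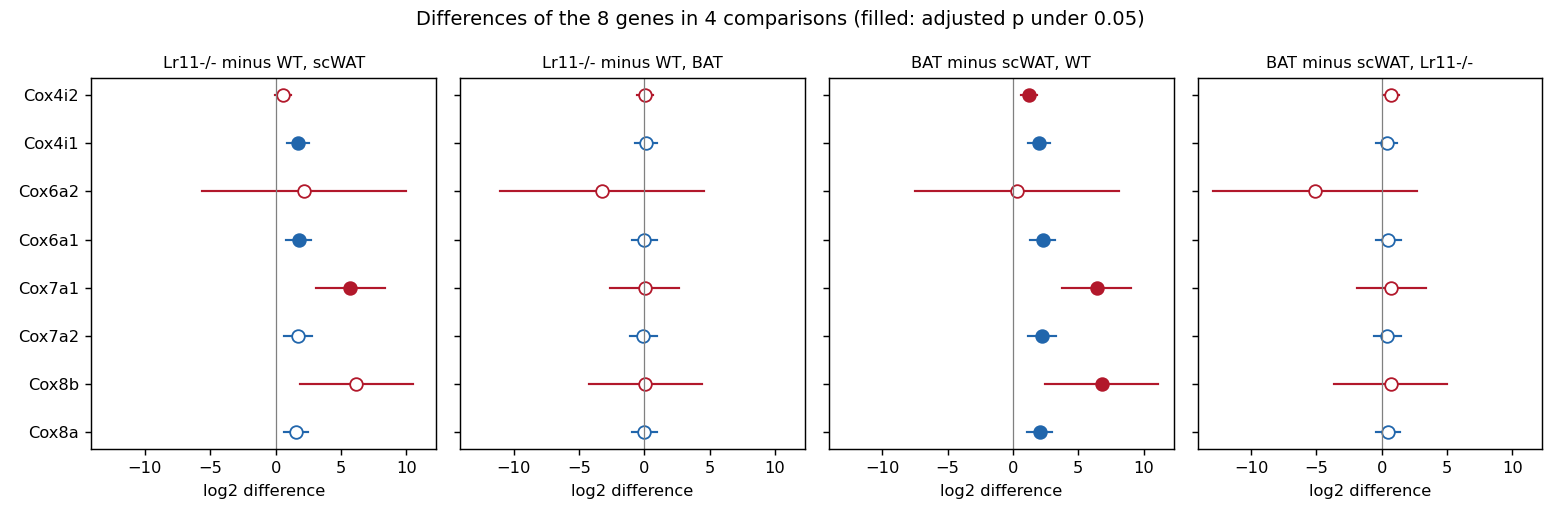
Log2 differences of the 8 genes in 4 comparisons, with 95% intervals from the fit over all 12 arrays; tissue forms are red, ubiquitous forms blue, and filled points have an adjusted p under 0.05. In scWAT 3 genes are filled and in WT depots 7, the BAT genotypes sit at 0 but for Cox6a2, and the interval of Cox6a2 crosses 0 in each panel.

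In BAT, no difference between genotypes was called. None of the 8 genes passed the test (limma, adjusted p of 1 for each; 0 at an unadjusted p under 0.05, the lowest being 0.38), against 0.0187% of all probes, which is 6. Cox7a1 was at 9.09, 9.26 and 9.35 in WT BAT and at 9.45, 9.11 and 9.24 in Lr11-/- BAT. Cox8b was at 9.27, 9.54 and 9.60 in WT and at 9.58, 9.47 and 9.61 in Lr11-/- BAT. The arrays of the genotypes interleaved for both genes. The differences were 0.03 for Cox7a1 and 0.09 for Cox8b.

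The spread shared with scWAT widens the intervals in BAT. In a fit of the 6 BAT arrays alone, the 95% interval of the genotype difference was -0.34 to 0.41 for Cox7a1 and -0.28 to 0.45 for Cox8b. For the ubiquitous forms it was -0.23 to 0.45 (Cox4i1), -0.39 to 0.41 (Cox6a1), -0.48 to 0.35 (Cox7a2) and -0.36 to 0.36 (Cox8a), and for Cox4i2 -0.33 to 0.48. A larger change than these in either direction is outside the intervals for these 7 genes. Cox6a2 was at 5.66, -4.35 and 6.04 in WT BAT and at 5.11, -3.48 and -3.98 in Lr11-/- BAT. The 3 high values were on the BAT arrays with muscle genes, and the level of WT BAT replicate 2 was not well above background. Its difference was -3.23 with a 95% interval of -11.04 to 4.57.

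Whether the genotype difference itself differed between depots was tested as an interaction. It passed for 0 of the 8 genes (limma, adjusted p 0.39 to 0.70) and for 0 of all tested probes (0%), while 5 of the 8 had an unadjusted p under 0.05. The interaction was 5.67 for Cox7a1 (SE 1.69) and 1.54 to 1.79 for the ubiquitous forms. Without Lr11-/- scWAT replicate 1 it passed for 4 genes (2.8% of all probes called higher) and without WT scWAT replicate 3 for 1 (0.461%). Without both it passed for 6 (6.4% of all probes), among them Cox7a1 at 8.09 (limma adjusted p = 0.0013) and Cox8b at 9.14 (adjusted p = 0.038). Without all 5 arrays with muscle genes it passed for none.

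WT BAT against WT scWAT compares the depots in the normal genotype. Of the 8 genes 7 were higher in BAT (15.7% of all probes were called higher), and none of these 7 overlapped between depots (24.3% of all probes). Cox6a2 was the exception, with a difference of 0.32 and a 95% interval of -7.49 to 8.12. Cox7a1 was 6.40 higher (SE 1.19, limma adjusted p = 0.0063) and Cox8b 6.78 higher (SE 1.95, adjusted p = 0.030), which is 84.4-fold and 109.7-fold. These sizes rested on WT scWAT replicate 2, without which the log2 differences were 5.04 (adjusted p = 0.015) and 3.86 (adjusted p = 0.023). The ubiquitous forms rose by 1.98 to 2.27 (adjusted p 0.0065 to 0.0099), or 3.95-fold to 4.82-fold.

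Cox4i2 was at 1.11, 1.03 and 1.04 in WT BAT and at 0.89 to 1.40 in Lr11-/- BAT, above all 6 scWAT arrays. It rose by 1.21 between the WT depots (SE 0.28, limma adjusted p = 0.013). Over both genotypes together it was 0.96 higher in BAT, and an exact permutation test within genotype gave p = 0.005, the smallest that its 400 arrangements allow. The same exact permutation test was run for each of the 8 genes, and the unadjusted p was 0.02 to 0.045 for the other genes except Cox6a2 (p = 0.415). Cox8b kept its call between the WT depots in 9 of the 12 fits that left out an array (adjusted p 0.071 to 0.085 without a WT BAT array), and the remaining 6 genes kept theirs in all 12. With only the 7 arrays low in muscle genes, where WT BAT has a single array whose spread is assumed to be that of the other groups, Cox4i1 and Cox7a1 passed as higher (4.95% of all probes). Cox6a2 passed as lower in BAT in that fit, but it was not well above background on the single WT BAT array, so only a bound can be given. It was at least 10.5-fold lower there than the mean of the 2 WT scWAT arrays.

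Between knockout scWAT and BAT no member was called. Lr11-/- BAT against Lr11-/- scWAT gave 0 calls among the 8 genes (limma, adjusted p 0.48 to 0.93; 1 gene, Cox4i2, at an unadjusted p under 0.05), with 0.0405% of all probes called. Cox4i2 did not overlap between these depots, being 0.71 higher in BAT (14% of all probes were higher without overlap). For the other genes but Cox6a2 the depot difference was 0.37 to 0.73, and without the 2 scWAT arrays with muscle genes it was -0.14 to -0.01. WT BAT against Lr11-/- scWAT also gave 0 calls (0.0966% of all probes; adjusted p 0.60 to 0.97; Cox4i2 alone at an unadjusted p under 0.05), with differences of 0.26 to 0.70 outside Cox6a2. On replicates 2 and 3 of Lr11-/- scWAT Cox7a1 was at 9.28 and 9.30, inside the range of 9.09 to 9.45 over the BAT arrays, while replicate 1, with muscle genes, was at 7.02. These comparisons share groups with those above and are not independent of them.

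The balance within a pair, the tissue form minus its partner on the same array, does not depend on a scale factor of the array, and only its change between groups is read. For Cox7a1 and Cox7a2 the WT scWAT arrays had a balance of -3.32, -4.21 and 0.51. The Lr11-/- scWAT arrays had 1.27, 1.84 and 1.80. In BAT it was 1.96, 1.66 and 1.90 for WT and 2.08, 1.92 and 1.80 for Lr11-/-. The 3 WT scWAT arrays were below all 9 others. The balance was 3.98 higher in Lr11-/- than in WT scWAT and 4.18 higher in WT BAT than in WT scWAT, each with an exact permutation p of 0.1, the smallest that 3 against 3 arrays can give. Without the 2 scWAT arrays with muscle genes these changes were 5.59 and 5.60. Between the BAT genotypes it changed by 0.10 (exact p = 0.5).

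For Cox8b and Cox8a it was -4.22, -10.04 and 0.29 on the WT scWAT arrays. Lr11-/- scWAT had -0.52, 0.22 and 0.20. On the BAT arrays it stayed between 0.03 and 0.26. The WT scWAT array with muscle genes had the highest balance of all 12 arrays and the other 2 the lowest, so the groups overlapped. The change was 4.62 between the scWAT genotypes (exact permutation p = 0.4), 1.93 without WT scWAT replicate 2 and 7.33 without the 2 arrays with muscle genes.

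The subunit IV pair moved the other way in mean, by -1.15 between the scWAT genotypes (exact permutation p = 0.2), with overlap at WT scWAT replicate 3. Cox4i1 was called higher there and Cox4i2 was not. For Cox6a2 and Cox6a1 the change was 0.41 (exact p = 0.8), and the arrays with muscle genes had the highest balance in each group.

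**Figure D3:**
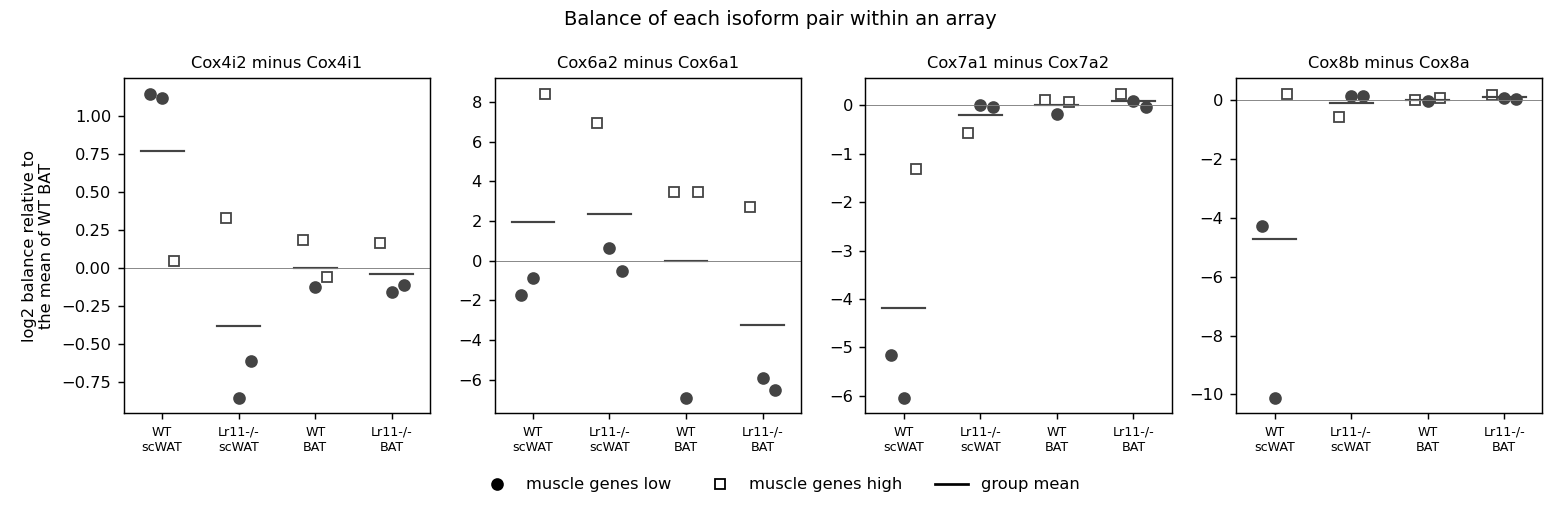
Balance of each pair (log2 signal of the tissue form minus that of its partner on the same array), set to 0 at the mean of WT BAT; points are the 12 arrays, lines are group means and open squares are the 5 arrays with muscle genes. The Cox7a1 balance is lowest on the 3 WT scWAT arrays, and for Cox8b on WT scWAT replicates 1 and 2; the vertical scales differ between panels.

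The levels of the tissue forms were set beside marker genes on the same arrays. The mean of 10 brown adipocyte genes was -1.12, -2.61 and 0.73 in WT scWAT, 1.05, 3.68 and 3.61 in Lr11-/- scWAT and 3.29 to 4.43 in BAT. Within WT scWAT, Cox7a1 and Cox8b were also lowest on replicate 2 and highest on replicate 3. Of the 10 genes 3 passed in scWAT, all higher: Ucp1, the uncoupling protein of brown fat (10.14, limma adjusted p = 0.033), Cidea, a lipid droplet protein (8.70, adjusted p = 0.040), and Ppargc1a, a coactivator of mitochondrial genes (4.50, adjusted p = 0.037). Over all probes 3.4% were called higher. With each array left out in turn 0 to 7 of the 10 passed as higher (0 to 13.4% of all probes), with none on 9 of the 12 occasions. When both scWAT arrays with muscle genes were dropped, 7 passed as higher (16.4% of all probes) and 1 as lower. Dropping only replicate 1 of either scWAT genotype also left 1 of the 10 called lower in Lr11-/- scWAT. Zic1 and Lhx8, genes of classical brown fat, did not order the groups alike. Zic1 was at -6.86, 0.76 and 0.46 in WT scWAT, -3.79, -3.79 and -3.00 in Lr11-/- scWAT and -0.71 to 1.49 on the BAT arrays. Lhx8 was at 2.81, -0.48 and -0.01 in WT scWAT, 0.58, -3.00 and -3.25 in Lr11-/- scWAT and -1.87 to -0.28 on the BAT arrays. The part of cell composition in the Cox7a1 and Cox8b differences was not tested.

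Cox6a2 was high where muscle genes were high. On the 5 arrays with muscle genes it was at 5.11 to 8.32, and on the other 7 at -4.35 to 3.06. Among those 7 it was 3.06 and 2.04 in Lr11-/- scWAT, -0.88 and -1.03 in WT scWAT, and -4.35 to -3.48 in BAT. On these 7 arrays alone, a selection made after the values were seen, Lr11-/- exceeded WT scWAT by 3.51 (95% interval 2.46 to 4.55, limma adjusted p = 0.019, 2 arrays against 2), and with all arrays and the muscle mean as a covariate by 2.50 (adjusted p = 0.17). The mean of the 14 muscle genes was -3.30 and -3.48 on these Lr11-/- scWAT arrays and -2.73 and -3.27 on the WT ones. Of the 14, 3 were higher on both Lr11-/- arrays (Atp2a1, Mb and Myl1), 4 were lower on both (Acta1, Myh4, Pvalb and Tnnt3) and 7 overlapped. The share of all probes apart in this way, 2 arrays against 2, was not computed, so these counts are only descriptions. Myl1, a fast myosin light chain, was at 4.83 and 5.16 against 3.85 and -0.53. It was also at 5.12, 4.89 and 4.92 on the BAT arrays low in muscle genes, where Cox6a2 was at -4.35 to -3.48. The part of muscle RNA in the remaining Cox6a2 difference was not tested.

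**Figure D4:**
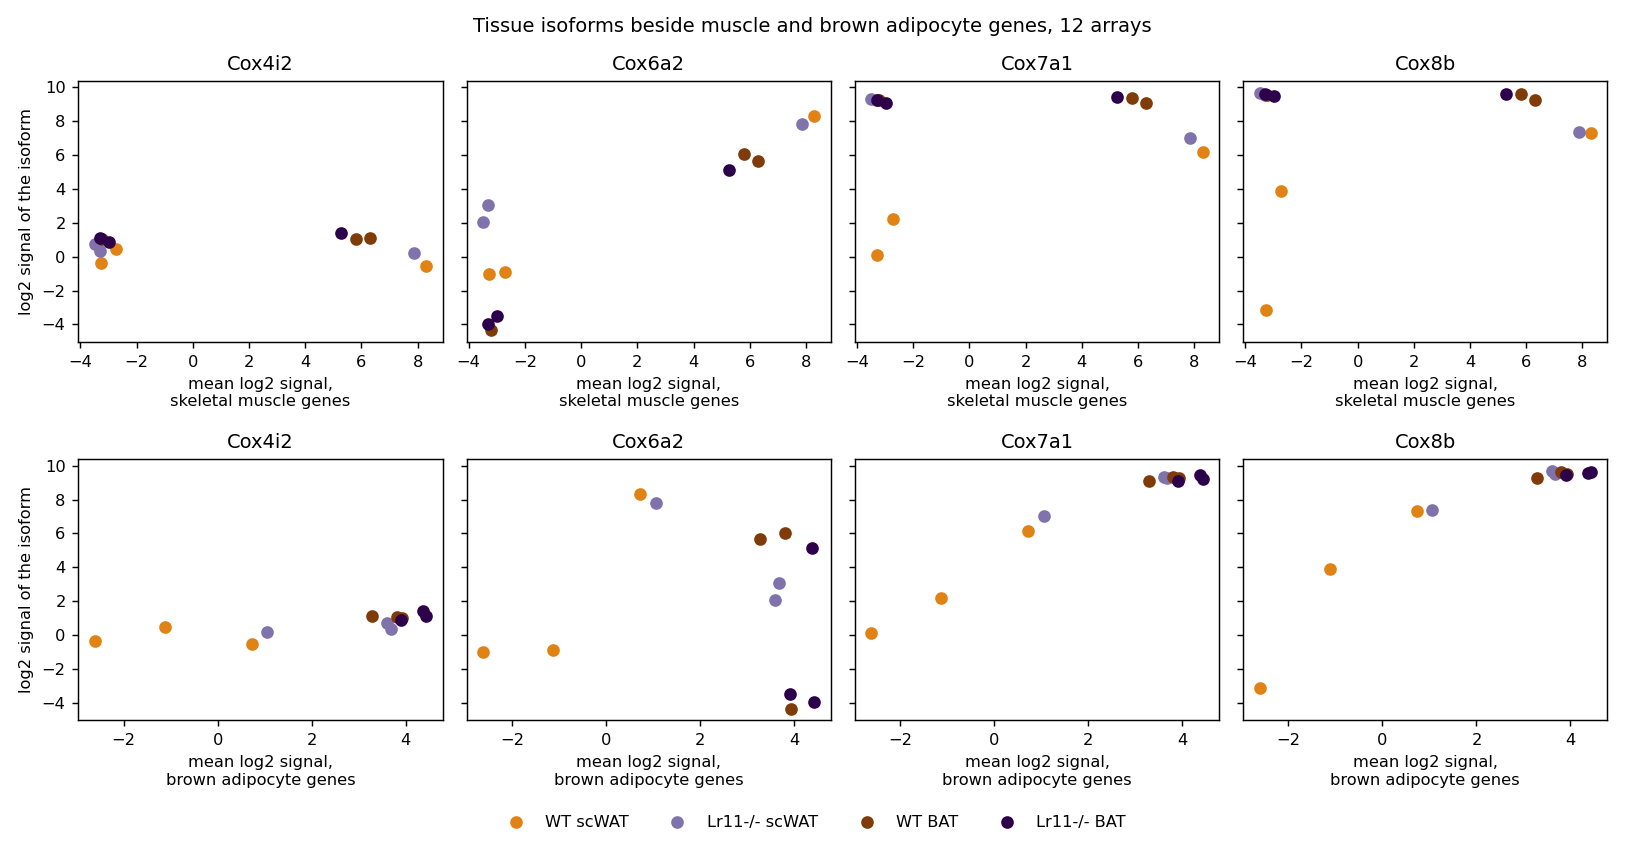
Log2 signal of the 4 tissue forms against the mean of 14 skeletal muscle genes (upper row) and of 10 brown adipocyte genes (lower row), 1 point per array and coloured by group. Cox6a2 is at 5.11 or above where muscle genes are high, and Cox7a1 and Cox8b are near 9 wherever brown adipocyte genes average above 3.

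Genes with the most similar pattern were sought by Pearson correlation over the 12 arrays among 14699 named genes. The arrays share depot, genotype and tissue makeup, so the coefficients are descriptions. For Cox8b they were Acacb (r = 0.99), Cisd1, Mfn2, Clic5 and Smyd1, and for Cox7a1 Ddo (r = 0.996), Chchd10, Gfm2, Ndufa5 and Idh3b. For Cox6a2 they were Ppp1r3a (r = 0.97), Cacna1s, Cav3, Mlf1 and Fzd9. Cacna1s, the calcium channel subunit of skeletal muscle, and Cav3, the muscle caveolin, were highest on WT scWAT replicate 3. For Cox4i2 they were Skint9 (r = 0.99), Gm2694, Car7, Bpifa5 and Spata31d1a, of which Skint9 ran from -1.76 to 0.57. Among the members the closest were Cox6a1 and Cox8a (r = 0.997) and Cox4i1 and Cox7a2 (r = 0.99), Cox7a1 and Cox8b had r = 0.96, and Cox6a2 had r from -0.27 to 0.14 with the others.

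The remaining parts of the complex were read from lists of their names. Of 11 other nuclear subunits 9 were tested (Cox7b2 and Cox8c were dim), and 5 passed in scWAT, all higher in Lr11-/-: Cox6b1, which bridges the monomers of the dimer (2.15, limma adjusted p = 0.040), Cox6b2, its testis form (1.49, adjusted p = 0.038), Cox6c (1.69, adjusted p = 0.045), Cox7b (1.78, adjusted p = 0.039) and Cox7c (1.42, adjusted p = 0.048). The median difference of all 9 tested subunits was 1.78, close to that of the ubiquitous members. Cox5a and Cox5b, which bind the matrix face, were 1.93 and 1.94 higher without passing (adjusted p = 0.053 for both). Cox7a2l, a relative of Cox7a2 that joins respiratory complexes into larger assemblies, had the smallest difference (0.41, adjusted p = 0.29). With each array left out in turn 0 to 9 of the 9 passed (0 to 13.4% of all probes called higher), with none for the same 9 arrays as above. Without the 2 scWAT arrays with muscle genes all 9 passed (16.4% of all probes). In the fit of all arrays 3.4% of all probes were called higher.

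Of the 23 assembly factors 21 were tested and 1 passed in scWAT, Taco1, a translational activator of the mitochondrial COX I messenger (2.26, limma adjusted p = 0.041), with a median difference of 1.11. This count is near the share over all probes, 3.4% called higher. Without the 2 scWAT arrays with muscle genes 18 of the 21 passed (16.4% of all probes), and with each array left out in turn 0 to 17 (0 to 13.4%). Between the WT depots 8 of the 9 subunits and 15 of the 21 assembly factors were called higher in BAT (15.7% of all probes), and in BAT none of either list passed between genotypes. The 3 subunits of mitochondrial DNA had no named probe.

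**Figure D5:**
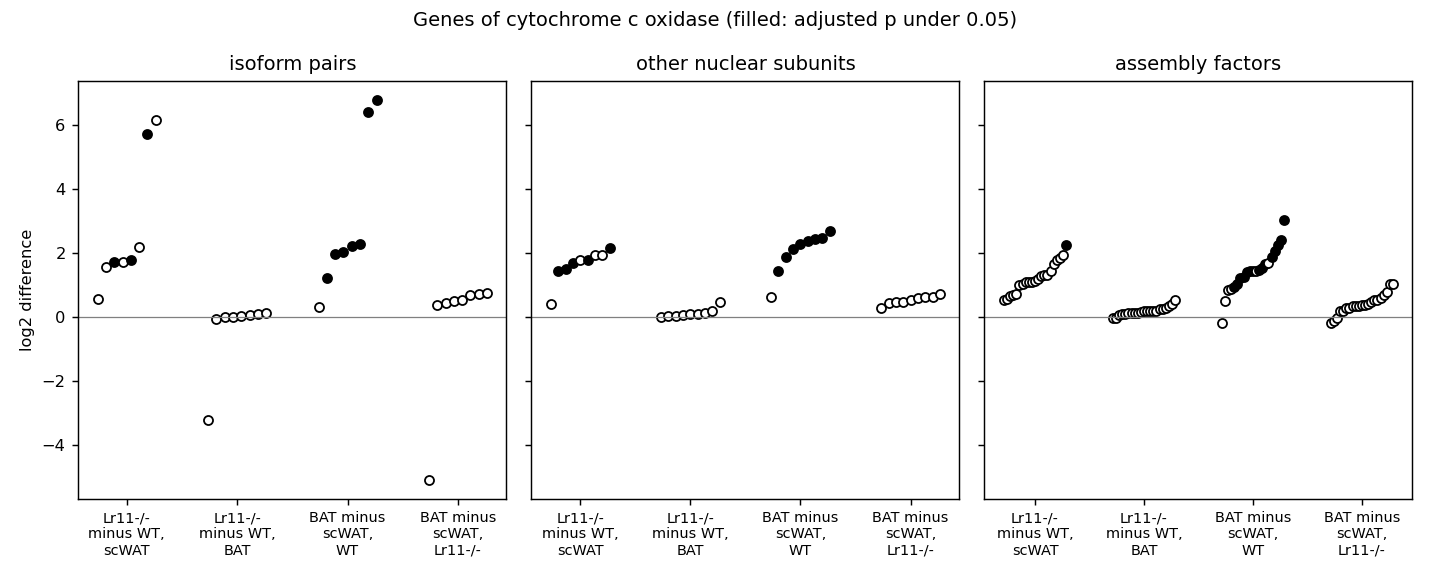
Log2 differences of the 8 isoform genes, 9 other nuclear subunits and 21 assembly factors in 4 comparisons, 1 point per gene; filled points have an adjusted p under 0.05. In scWAT Cox7a1 at 5.70 and Cox8b at 6.17 lie above every other gene shown.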

How the data were processed

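Cy3-labelled RNA from both fat depots of WT and Lr11-/- mice was hybridised to one-colour Agilent mouse arrays, 3 per group. The authors deposited intensity values from Feature Extraction 10.10, with background subtraction and spatial detrending of each array but no scaling across arrays, and the deposited table of the series holds the same intensity values. From these, outlier spots (128 to 181 per array) were left out, log2 was taken, spots of a probe were averaged, and the array's 75th percentile (374 to 632) was subtracted. Testing took in the 32107 probes that every array of some group measured well above background, a probe with several spots counting only where all its spots were. Symbols came from RefSeq accessions matched to a GRCm38.p6 gene table (27235 of 28685 probes with an accession); the array was designed on another build, so no probe coordinates are given. All 12 arrays entered 1 limma fit with 4 group means (R 4.3.3, limma 3.58.1, lmFit and eBayes), with Benjamini-Hochberg adjustment over all tested probes and a threshold of 0.05. The fit was tested on simulated independent values with known changes, and the permutation tests on small examples. The other steps were not tested in this way. Pair balances were compared by two-sided exact permutation tests. A gene was read from its tested probe with the highest mean, and the named genes are the 8 members, Sorl1, genes of the lists and the 5 genes most like each tissue form. The members and lists were chosen with earlier results of these data known. Alternatives were other scalings and filters, outlier spots kept, array series or slide as a block, the second series alone, array weights, trend and robust eBayes, the compared groups alone, all probes of a gene and each array left out. Chosen after seeing the data were normexp (offset 50) on the median signals, leaving out arrays with muscle genes, and the muscle mean as a covariate. Precision is limited by 3 arrays per group and, for dim probes, by the background.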

Additional observations from a re-analysis of the deposited data

How the results depend on the processing

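The genotype effect in scWAT depended most on the setting. The 3 called genes, beside 1692 of 32107 probes called in either direction, became 1 without scaling (838 probes). None was called without a filter (151 of 55681 probes) or with the scWAT arrays alone (0 probes). With the second array series alone (7261 probes) or with array weights (3651 probes) there were 6. They became 2 with median scaling (1058 probes), quantile scaling (1544 probes) or array series as a block (1301 probes). They became 6 without the 2 scWAT arrays with muscle genes and 5 without all 5 such arrays, where calls over all probes also rose, from 3.4% higher to 16.4% and 7.38%. Leaving out 1 array at a time gave 0 to 6, beside 0 to 13.4% of all probes called higher. Without any BAT array the values of the scWAT arrays were the same and only the shared estimate of the spread changed; elsewhere the cause was not tested. All alternatives kept the direction of the 8 genes in scWAT except for Cox6a2 with the second series alone. The interaction passed for 0 genes in the reported fit. It passed for 2 with the second series alone (890 of 32107 probes in either direction) and for 5 with array weights (1095 probes). Without the 2 scWAT arrays with muscle genes it passed for 6 (6.4% of all probes called higher). When 1 array was left out it passed for 0 to 4 (0 to 2.8% of all probes). Of the 7 calls between the WT depots, only those of Cox4i1 and Cox7a1 remained without the 5 arrays with muscle genes, where WT BAT kept 1 array. The fitted Cox6a2 value turned there from 0.32 to -3.39 and passed the test as lower in BAT. Cox6a2 was not well above background on the single WT BAT array, so the value is only a bound. No alternative called a member in BAT, between the Lr11-/- depots or between WT BAT and Lr11-/- scWAT. The Cox4i2 balance moved from -1.15 to -1.87 between scWAT genotypes under both settings without muscle arrays and from -0.77 to -1.26 between WT depots without all 5. The Cox7a1 balance moved from 0.30 to 0.039 between Lr11-/- depots with the second series alone and without all 5 arrays, and from 0.20 to -0.16 between WT BAT and Lr11-/- scWAT without all 5. Normexp on mean signals was not run because the files hold median signals, and no protein sequences were compared here. No paired analysis was possible because the replicate numbers only follow accession order.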
